A study of Mus musculus with 8 samples.

Results

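The RANKL, RANK and osteoprotegerin axis was followed through 4 genes in mouse whisker follicles: Tnfsf11, which encodes the ligand RANKL, Tnfrsf11a, which encodes its receptor RANK, Tnfrsf11b, which encodes the decoy receptor osteoprotegerin, and Traf6, which encodes the adaptor bound by activated RANK. They are 4 of 20887 genes with a symbol on the array, and all 4 were among the 25353 genes that passed the filter on dim probes. The set was selected on the E7386 and vehicle values of these same arrays, in which the signal of Tnfsf11 was already known to differ. The difference between the groups in these 4 genes is therefore given as a description. Calls of these genes in the test across all genes are not read as support. Each of the 4 had 1 probe on the array.

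RNA was measured in whisker follicles, the large sensory hair follicles of the snout, of female mice of the genotype ApcMin/+, which are heterozygous for a truncating mutation in the beta-catenin antagonist Apc. Mice of the E7386 group received 30 mg/kg of E7386 orally, given 2 times per day, over 4 cycles with 5 days of dosing and 2 days of rest in each, from an age of 8 weeks. Animals of the vehicle group received vehicle, and they carried the same Apc allele, so no group with intact Apc was part of the comparison. Follicles were taken 6 h after the last dose. E7386 is a small molecule reported to disrupt the interaction between beta-catenin and the coactivator CBP. Each group had 4 samples, each hybridised to its own 1-colour Agilent array. The labels number the samples but do not say that each came from a separate mouse, so the p-values below measure the spread between these samples only.

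RANKL is a membrane-bound member of the tumour necrosis factor family that can also be shed from the cell surface. It binds RANK, which recruits TRAF6 and other adaptors and activates NF-kB and MAP kinase signalling, while osteoprotegerin binds RANKL and keeps it from RANK. The axis is best known for forming osteoclasts from myeloid precursors, and it also acts in lymph nodes, in the thymus and in the epithelium of the mammary gland. In mouse skin, RANK signalling is known to promote the growth phase of the hair follicle.

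The promoters of the ligand and its receptor are shown because the signals of these partners behaved differently on the arrays. They are RefSeq sequences of GRCm38.p6, each the 250 bases before the annotated start, written in the direction of transcription. Promoters of 3 of the 4 genes were matched, those of Tnfsf11, Tnfrsf11a and Traf6. Capitals mark TATAA, the core of a TATA box, and GGGCGG, a GC box, on the strand shown. The Tnfsf11 promoter lies at chr14:78308044-78308293 on the minus strand and that of Tnfrsf11a at chr1:105780473-105780722 on the plus strand.
Tnfsf11: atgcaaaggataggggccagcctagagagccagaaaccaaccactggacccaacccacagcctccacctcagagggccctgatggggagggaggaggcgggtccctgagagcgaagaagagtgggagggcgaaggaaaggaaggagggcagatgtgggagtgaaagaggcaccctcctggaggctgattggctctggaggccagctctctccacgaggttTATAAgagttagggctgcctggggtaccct
Tnfrsf11a: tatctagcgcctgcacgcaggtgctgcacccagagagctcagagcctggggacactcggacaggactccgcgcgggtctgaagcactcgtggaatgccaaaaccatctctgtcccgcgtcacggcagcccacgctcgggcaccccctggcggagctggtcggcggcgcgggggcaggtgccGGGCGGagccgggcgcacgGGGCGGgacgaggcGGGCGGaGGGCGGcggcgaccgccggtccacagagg
The Tnfsf11 promoter had 60.4% G and C, with TATAA beginning 30 bases before the start and an overlapping match on the other strand. A CCAAT motif lay on the opposite strand 64 bases before the start, and the Tnfsf11 window held no GGGCGG on either strand. The Tnfrsf11a promoter was richer in G and C, at 73.6%, with 4 copies of GGGCGG and no TATAA. Traf6, at chr2:101678170-101678419 on the plus strand, had 56.4% G and C, 2 copies of GGGCGG and no TATAA. Searched on both strands over the same length, TATAA was found in 22.8% of 32851 promoters, CCAAT in 33.8% and GGGCGG in 32.7%. The motif CTTTGA, the core bound by TCF and LEF factors, occurred in 13.8% of all promoters and in none of these 3 windows. A match or its absence describes only the letters of the window.

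All 8 arrays lay on 1 slide, the E7386 arrays in row 2 and the vehicle arrays in row 1, so row and treatment cannot be told apart. The share of spots well above background was 61.5% to 61.9% on E7386 arrays and 62.2% to 64.7% on vehicle arrays, without overlap. Markers of hair follicle epithelium were strong: Krt71, a keratin of the inner root sheath, averaged 9.43 ± 0.14 in E7386 samples and 9.38 ± 0.12 in vehicle samples (SD, n = 4 each). Here and below a level is the normalised log2 signal, the log2 of the processed intensity minus its 75th percentile on that array, so 0 is the signal at that percentile. Skeletal muscle RNA varied between samples of both groups. The summed linear signal of 10 muscle markers ran from 175.8 to 1095 on E7386 arrays and from 133.9 to 978.5 on vehicle arrays, and it was low on E7386 replicates 1 and 2 and on vehicle replicate 1. Results are therefore also given without these 3 muscle-poor arrays, on E7386 replicates 3 and 4 and vehicle replicates 2 to 4 only.

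Tnfsf11 was the member whose signal separated the groups. Its level was -4.15, -4.78, -4.57 and -4.07 in E7386 replicates 1 to 4. In vehicle replicates 1 to 4 it was -5.99, -6.69, -5.83 and -6.85. Every E7386 sample lay above every vehicle sample, and the spread within each group was smaller than the distance between the group means. The means were -4.39 ± 0.34 in E7386 samples and -6.34 ± 0.51 in vehicle samples (SD, n = 4 each), a difference of 1.95 on the log2 scale (SE 0.27). In bulk tissue, more Tnfsf11-expressing cells and more Tnfsf11 RNA per cell cannot be told apart.

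The spot was dim throughout. The scanner program called it well above background, here termed detected, on 4 of 4 E7386 arrays and on 0 of 4 vehicle arrays, so the vehicle level is only an upper limit and the fitted difference is no measure of the fold. Raising each vehicle value to the lowest signal that was well above background on its array gave a vehicle mean of -5.37. Against that mean Tnfsf11 was 1.97-fold higher in E7386 samples, an estimate without an error and not a strict lower limit. The lowest detected signal was itself lower on vehicle arrays, at -5.54 to -5.24, than on E7386 arrays, at -5.13 to -5.02.

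**Figure D1:**
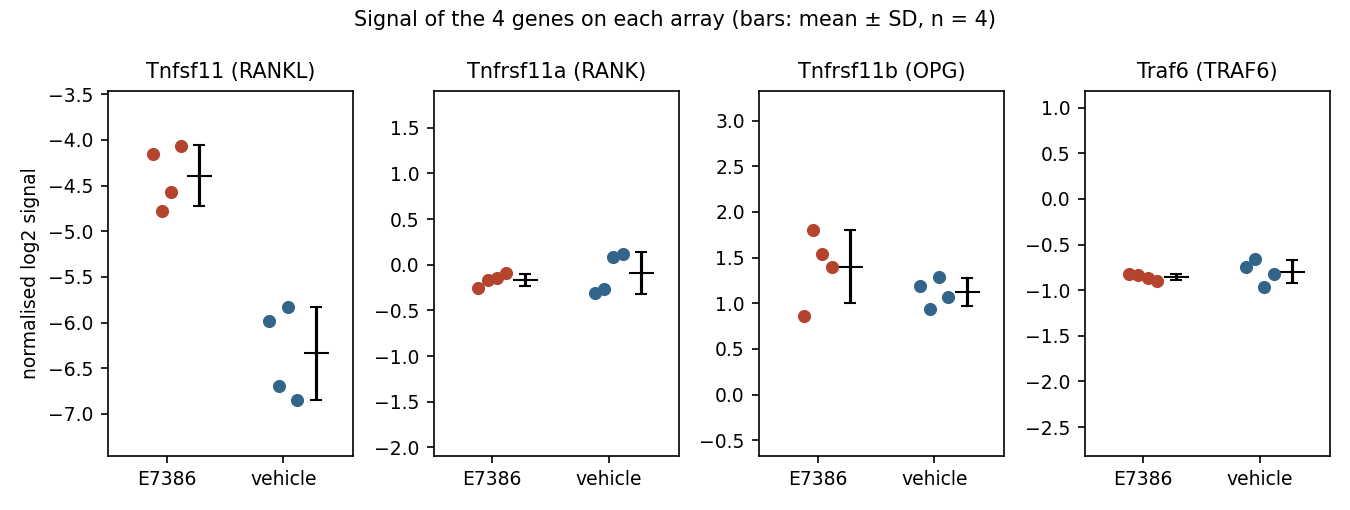
Normalised log2 signal (y axis, each panel spanning the same number of log2 units) of Tnfsf11, Tnfrsf11a, Tnfrsf11b and Traf6 on each array (points) for E7386 and vehicle (x axis), with mean ± SD (bars, n = 4). The 4 E7386 points of Tnfsf11 lie between -4.78 and -4.07, above all vehicle points, while the groups of the other 3 genes overlap.

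The scanner readings show how little light this separation rests on. The spot median of Tnfsf11 exceeded its local background by 44, 30.5, 31.5 and 33 intensity units on E7386 replicates 1 to 4. On vehicle replicates 1 to 4 the excess was 18, 13, 14 and 11 units. The lowest E7386 reading was thus above the highest vehicle reading before any normalization. Each array also has 308 negative control spots, which carry no mouse target. Of these, 1, 6, 0 and 1 reached the Tnfsf11 reading on E7386 replicates 1 to 4, and 3, 16, 7 and 18 did so on vehicle replicates 1 to 4. Vehicle readings were thus reached by 3 to 18 controls and E7386 readings by 0 to 6, and both groups stood near the top of the negative controls.

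**Figure D2:**
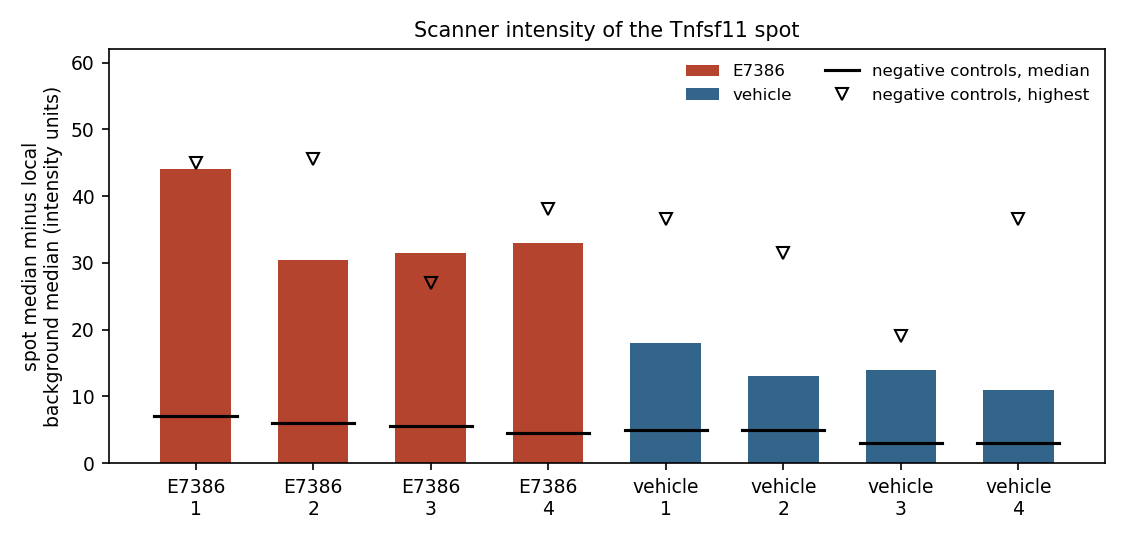
Spot median minus local background median (y axis, intensity units, from 0) of the Tnfsf11 spot on each array (x axis), with the median (line) and the highest value (triangle) of the 308 negative control spots of that array. E7386 readings run from 30.5 to 44 units and vehicle readings from 11 to 18 units, and the highest negative control exceeds the Tnfsf11 reading on every array except E7386 replicate 3.

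Tnfrsf11a, the receptor, was detected on all 8 arrays. Its level was -0.26, -0.17, -0.15 and -0.094 in E7386 replicates 1 to 4. In vehicle replicates 1 to 4 it was -0.31, -0.27, 0.085 and 0.12. The E7386 values lay inside the range of the vehicle values. The means were -0.17 ± 0.068 in E7386 samples and -0.092 ± 0.23 in vehicle samples (SD, n = 4 each), which differed by -0.076 on the log2 scale (SE 0.12).

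Tnfrsf11b, the decoy receptor, gave 0.86, 1.80, 1.54 and 1.40 in E7386 replicates 1 to 4. The 4 vehicle samples gave 1.18, 0.94, 1.29 and 1.07. Samples of E7386 held both the lowest and the highest value of this gene, so the groups overlapped. The means were 1.40 ± 0.40 in E7386 samples and 1.12 ± 0.15 in vehicle samples (SD, n = 4 each), a difference of 0.28 on the log2 scale (SE 0.19). Single arrays set its size: the difference was 0.46 without E7386 replicate 1 and 0.14 without E7386 replicate 2.

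Traf6, the adaptor, gave -0.82, -0.84, -0.87 and -0.90 in E7386 replicates 1 to 4. Among the vehicle samples its level was -0.74, -0.66, -0.96 and -0.82. The E7386 values were close together and lay within the vehicle range. Traf6 averaged -0.86 ± 0.033 in E7386 samples and -0.80 ± 0.13 in vehicle samples (SD, n = 4 each), a difference of -0.059 on the log2 scale (SE 0.081). The differences of Tnfrsf11a and Traf6 moved with single arrays as well, from -0.15 to -0.0047 and from -0.11 to -0.014 when 1 array was left out.

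Of the 4 members, 1 passed the test across all genes, Tnfsf11, where 1.12% of the genes tested were called, and that gene was also the only member of the 4 whose groups did not overlap, against 10.5% of all genes tested. That call was absent in 5 of 19 alternatives: with the replicate number as a block, without vehicle replicate 2, without E7386 replicate 3, without E7386 replicate 4 and without the 3 muscle-poor arrays. Nothing is read from these counts, since this contrast chose the members. Tnfsf11 also passed the filter only through the E7386 arrays, the group in which it is higher. Its call is therefore no support for the difference. Without the 3 muscle-poor arrays, the differences were 2.14 for Tnfsf11 (SE 0.36), -0.10 for Tnfrsf11a (SE 0.15), 0.37 for Tnfrsf11b (SE 0.14) and -0.067 for Traf6 (SE 0.12), all on the log2 scale.

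Ratios within an array remove any scaling of that array. The log2 difference of Tnfsf11 minus Tnfrsf11b, ligand against decoy, was higher in E7386 samples by 1.67, with no overlap between the groups. That of Tnfsf11 minus Tnfrsf11a, ligand against receptor, was higher by 2.03, again without overlap. For Tnfrsf11b minus Tnfrsf11a the change was 0.36 and the groups overlapped. Changes in the ratios with Tnfsf11 rest on the same dim vehicle readings as Tnfsf11 itself, so 1.67 and 2.03 do not measure their size. Tnfsf11 was chosen on this contrast, and the groups of Tnfrsf11a and Tnfrsf11b overlapped. The ratios with Tnfsf11 therefore repeat its separation and add no further result.

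Cells known to produce RANKL include T cells, osteoblasts and osteocytes, and fibroblasts, so the levels of their markers are set beside Tnfsf11. The summed linear signal of 11 T cell markers ran from 10.98 to 18.21 in E7386 samples and from 9.188 to 16.07 in vehicle samples. That sum is set mostly by Cd4, at mean levels of 3.07 in E7386 and 2.72 in vehicle samples, and Cd3e, at 1.48 and 1.25. For 6 bone markers the sum ran from 1.524 to 2.094 in E7386 samples and from 1.755 to 2.102 in vehicle samples. Bglap2 was the strongest of the bone markers, at 0.52 and 0.60, and Dmp1, an osteocyte matrix gene, never reached detection on the 8 arrays. Sp7, a further bone marker named after its values were seen, differed by -1.05 with overlap (limma adjusted p = 0.176). Of the 5 bone markers tested, 2 were higher in E7386 samples. Fibroblast and dermal papilla markers summed to between 543.9 and 628.3 in E7386 samples and to between 531.7 and 692 in vehicle samples. Macrophage and dendritic markers summed to between 47.22 and 53.16 in E7386 samples and to between 46.9 and 56.02 in vehicle samples. The groups overlapped in the sums of each of the 8 marker lists, including those for B cells, endothelium, muscle and follicle epithelium. For B cells they did so only through E7386 replicate 1, at 0.996. The other E7386 samples lay between 0.348 and 0.394, and vehicle samples between 0.541 and 0.812. Each sum follows its strongest markers and does not speak for the weaker ones. Of the 72 marker genes tested 0 were called by limma at an adjusted p under 0.05, where 1.12% of all genes tested were called. At an unadjusted p under 0.05 there were 7, or 9.72%, against 15.2% of all genes tested. Nothing is read from these counts about cell numbers. Among B cell markers Pax5 never reached detection.

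The 8 lists of genes around the axis hold 165 genes once each, of which 147 were tested. By limma with Benjamini-Hochberg adjustment over all 25353 genes, 2 of the 147 rose, where 0.753% of all genes tested rose, and 2 fell, where 0.367% fell. Without the 3 muscle-poor arrays 3 were called, Il6ra again together with Ngfr and the chemokine gene Ccl5. In all, 33 of the 147, the 4 called above included, had an unadjusted p under 0.05. That is a share of 22.4%, against 15.2% of all genes tested. Groups were apart for 15% of the 147 genes, against 10.5% of all genes tested. The median difference was -0.032 on the log2 scale, against 0.0088 over all genes tested. Over the 16133 tested genes with a symbol, the nearer background, these values were 16.9%, 12.6% and -0.022. The lists were drawn up with earlier results of these data known. With 1.12% of all genes tested called, a short list would hold few or no calls. A list with 0 calls is therefore not read as unchanged.

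Regulators that act on Tnfsf11 or Tnfrsf11b transcription gave 3 of the 4 calls. Of the 25 tested, 2 rose and 1 fell, 11 had an unadjusted p under 0.05, and for 9 the groups did not overlap. The last 2 counts are 44% and 36% of the list, against 15.2% and 10.5% of all genes tested and 16.9% and 12.6% of those with a symbol. Over all genes tested 0.753% rose and 0.367% fell. The list was drawn up with earlier results of these data known, so nothing is read from the higher shares. The median difference of the list was 0.054. Il6ra, the receptor subunit for interleukin 6, had levels of 3.66, 3.44, 3.88 and 4.10 in E7386 replicates 1 to 4. In vehicle replicates 1 to 4 its level was 2.24, 2.36, 2.25 and 2.60. All E7386 values exceeded all vehicle values, and the means of 3.77 ± 0.29 in E7386 samples and 2.36 ± 0.17 in vehicle samples (SD, n = 4 each) differed by 1.41 (SE 0.15), or 2.65-fold (limma adjusted p = 0.00768). The call held in all 20 alternatives, with adjusted p between 0.00239 and 0.0466.

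Lifr, a receptor subunit for leukaemia inhibitory factor and related cytokines, gave 3.07, 3.36, 3.47 and 3.32 in E7386 replicates 1 to 4. The vehicle samples gave 2.53, 2.39, 2.80 and 2.66. Lifr rose by 0.71 (SE 0.12, limma adjusted p = 0.0395), with no overlap, and its other 2 probes gave 0.64 and 0.72. Leaving out any single array other than E7386 replicate 1 lost the call, with adjusted p of up to 0.128, and so did leaving out the 3 muscle-poor arrays (adjusted p = 0.147). The Lifr call was also lost with quantile normalization (adjusted p = 0.0587), the authors' deposited log2 values (0.0592), probes averaged (0.0776) and no detection filter (0.0822).

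Pth1r encodes the receptor for parathyroid hormone and its related peptide, through which parathyroid hormone raises RANKL in bone. Its level was 0.78, 1.25, 1.02 and 0.82 in E7386 replicates 1 to 4. Vehicle replicates 1 to 4 gave 1.84, 1.90, 2.40 and 2.18, all higher than any E7386 sample. The gene fell by 1.11 on the log2 scale (SE 0.16), which is 2.16-fold (limma adjusted p = 0.0198). The call was lost without E7386 replicate 3, without E7386 replicate 4 and without vehicle replicate 4, with adjusted p of up to 0.075, and when the 3 muscle-poor arrays were left out (adjusted p = 0.0938).

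Several other regulators had groups that did not overlap but did not pass the adjustment. Osmr, the oncostatin M receptor, ranged from 2.75 to 2.80 in E7386 samples and from 1.80 to 2.38 in vehicle samples, a difference of 0.65 (limma adjusted p = 0.0524). Stat3, the transcription factor activated by receptors of the interleukin 6 family, ranged from 3.67 to 3.94 in E7386 samples and from 3.20 to 3.43 in vehicle samples, a difference of 0.44 (limma adjusted p = 0.064), and its other probe gave 0.42. Nr3c1, the glucocorticoid receptor, ranged from 3.09 to 3.29 in E7386 samples and from 3.44 to 3.74 in vehicle samples, a difference of -0.40 (limma adjusted p = 0.078), and its other probe gave -0.27. Rxra, the partner of the vitamin D receptor, differed by 0.43 (limma adjusted p = 0.104). By contrast, Vdr, the vitamin D receptor itself, differed by 0.054, less than its SE of 0.11. Il6, which encodes interleukin 6, did not pass the filter on dim probes and was not tested. Osmr, Stat3, Nr3c1, Rxra and Vdr were named after their values were seen.

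**Figure D3:**
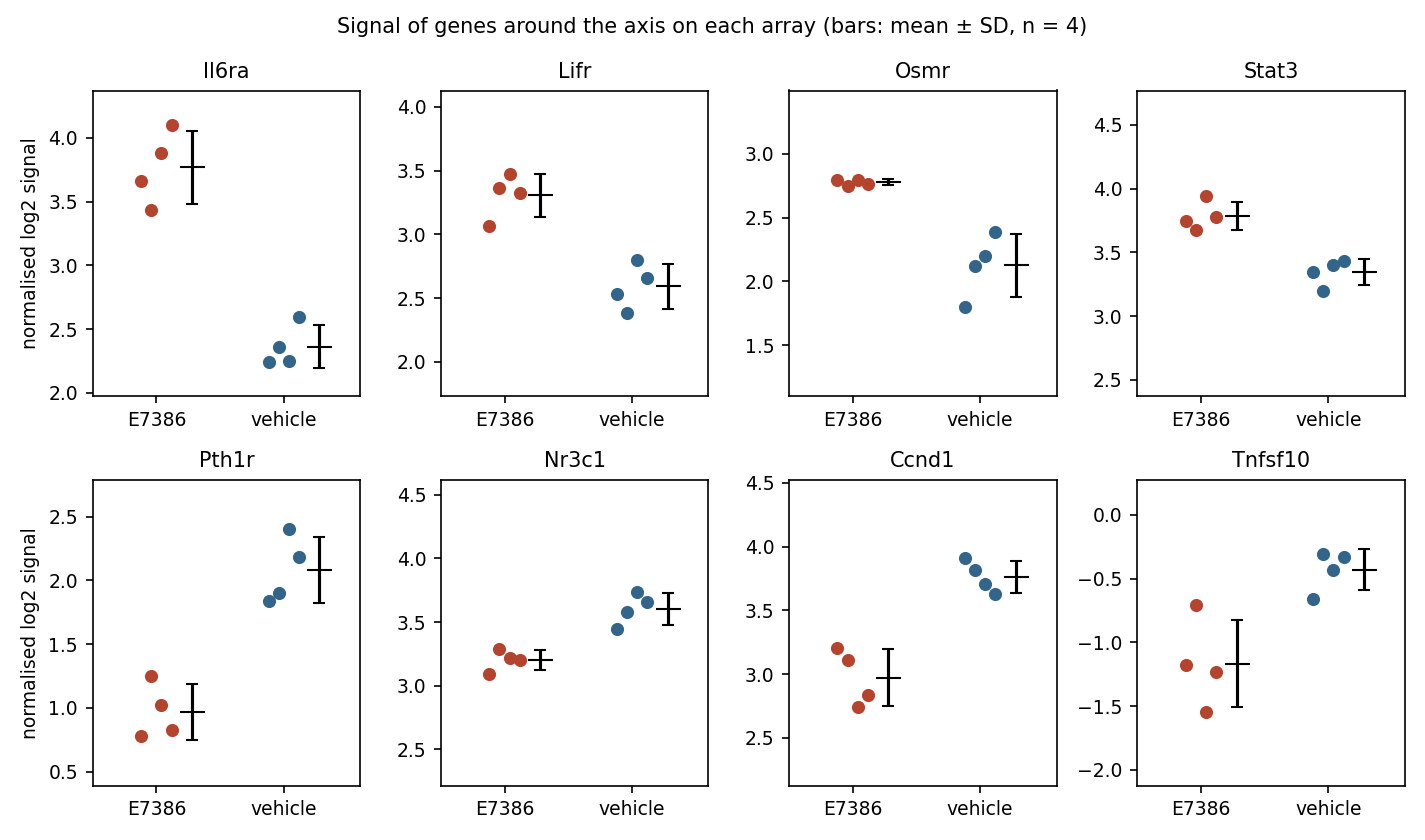
Normalised log2 signal (y axis, each panel spanning the same number of log2 units) of 8 genes around the axis on each array (points) for E7386 and vehicle (x axis), with mean ± SD (bars, n = 4). The 8 genes were chosen with their values known, and the groups do not overlap for any of them. Groups were apart for 15% of the 147 genes tested in the lists around the axis. Il6ra and Lifr rose and Pth1r and Ccnd1 fell at an adjusted p under 0.05, while Osmr, Stat3, Nr3c1 and Tnfsf10 did not pass.

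Among ligands of the tumour necrosis factor family other than RANKL, 12 of 17 listed genes were tested and 0 were called by limma. At an unadjusted p under 0.05 there was 1, or 8.33%, against 15.2% of all genes tested. Tnfsf10, which encodes TRAIL, a further ligand that osteoprotegerin binds, gave -1.18, -0.71, -1.54 and -1.23 in E7386 replicates 1 to 4. The vehicle samples gave -0.66, -0.31, -0.44 and -0.33. The groups did not overlap, by a narrow margin between E7386 replicate 2 and vehicle replicate 1, and the difference of -0.73 did not pass the adjustment (limma adjusted p = 0.101). Cd70, a T cell costimulatory ligand, differed by -0.73 with overlap, and Tnfsf13b, the B cell survival factor BAFF, by 0.23 with overlap and by 0.10 without vehicle replicate 3. The median of the list was -0.049.

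Receptors of the same family, other than RANK and osteoprotegerin, gave 0 calls by limma among the 21 tested of 26 listed, with 5 at an unadjusted p under 0.05, or 23.8%, against 15.2% of all genes tested. Their groups did not overlap in 19% of cases, against 10.5% of all genes tested, and the median difference was 0.0058. Ngfr, the low-affinity neurotrophin receptor p75, ranged from 0.020 to 1.00 in E7386 samples and from 1.33 to 1.55 in vehicle samples, a difference of -1.01 (limma adjusted p = 0.0593). Without E7386 replicate 1, the highest sample of its group, Ngfr differed by -1.21 (limma adjusted p = 0.00781), and without the 3 muscle-poor arrays by -1.33 (limma adjusted p = 0.0466). Both fits drop the E7386 sample nearest the vehicle group. Of 8 fits that left out 1 array, 1 called Ngfr, the fit without E7386 replicate 1. The rest gave limma adjusted p of 0.108 to 0.174. Fas, the death receptor, ranged from -0.13 to 0.33 in E7386 samples and from -0.91 to -0.45 in vehicle samples, a difference of 0.72 (limma adjusted p = 0.0647). For Tnfrsf1a, the main receptor for tumour necrosis factor, the difference was 0.21, without overlap (limma adjusted p = 0.171).

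Downstream of the receptor, 31 of 32 genes that relay the RANK signal were tested, and 0 were called by limma, with a median difference of 0.0053. At an unadjusted p under 0.05 there were 5, or 16.1%, against 15.2% of all genes tested. The smallest p of this list belonged to Map3k14, the kinase NIK of the non-canonical NF-kB pathway, which averaged 0.24 ± 0.16 in E7386 samples and 0.54 ± 0.082 in vehicle samples (SD, n = 4 each), a difference of -0.30 (limma adjusted p = 0.196). Its other probe gave -0.011, so the probes of Map3k14 disagree. Gab2, a scaffold that binds RANK, differed by 0.81 and was detected on 4 of 4 E7386 arrays and on 2 of 4 vehicle arrays (limma adjusted p = 0.266). Without E7386 replicate 2 the Gab2 difference was 0.51. Nfkb2, the precursor of the non-canonical subunit p52, differed by -0.28 (limma adjusted p = 0.27). The groups of Map3k14 and Nfkb2 did not overlap, and those of Gab2 nearly touched, with the lowest E7386 sample and the highest vehicle sample both at -4.86.

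NF-kB feedback and target genes gave 0 calls by limma among 17 tested of 20, with a median difference of -0.024. At an unadjusted p under 0.05 there were 4, or 23.5%, against 15.2% of all genes tested. Nfkbiz, a nuclear inhibitor-like protein that steers NF-kB target choice, averaged -2.05 ± 0.16 in E7386 samples and -2.63 ± 0.23 in vehicle samples (SD, n = 4 each), a difference of 0.59 without overlap (limma adjusted p = 0.0922). Vcam1, an adhesion molecule, differed by 0.61 and Ccl2, a monocyte chemokine, by -0.58, both with overlap. Without the 3 muscle-poor arrays these became 0.26 for Vcam1 and -1.03 for Ccl2. Vcam1 differed by 0.39 without E7386 replicate 1 and by 0.19 on its other probe.

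Genes that RANK is known to act on in epithelium were all tested, 12 of 12, and 1 fell while 0 rose, with a median of -0.011. Over all genes tested 0.367% fell and 0.753% rose. Groups were apart for 16.7% of the list, against 10.5% of all genes tested. Nothing is read from these shares, since the list was drawn up with earlier results known. At an unadjusted p under 0.05 there were 4, or 33.3%, against 15.2% of all genes tested. The one that fell was Ccnd1, which encodes cyclin D1 and is induced by RANK in mammary epithelium. Its level was 3.21, 3.11, 2.74 and 2.84 in E7386 replicates 1 to 4. In vehicle replicates 1 to 4 it was 3.91, 3.82, 3.70 and 3.62. Ccnd1 fell by 0.79 on the log2 scale (SE 0.12, limma adjusted p = 0.0294), without overlap. Leaving out any single array other than E7386 replicate 1 lost the call, with adjusted p of up to 0.0974, as did leaving out the 3 muscle-poor arrays (adjusted p = 0.0653) and using no detection filter (adjusted p = 0.0633). Ccnd1 is also a known target of beta-catenin.

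Rspo1, the secreted Wnt amplifier R-spondin 1, had a difference of -0.39 (limma adjusted p = 0.14), with a gap between the groups that was small beside their spread. Spib, a transcription factor induced by RANK in intestinal M cells, differed by -0.92 with overlap (limma adjusted p = 0.27), and it was detected on 1 of 4 E7386 arrays and on 3 of 4 vehicle arrays. Rspo1 and Spib were named after their values were seen.

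Proteins that shed RANKL or bind RANKL or osteoprotegerin gave 0 calls by limma among 12 tested of 13, with a median of -0.12. At an unadjusted p under 0.05 there were 2, or 16.7%, against 15.2% of all genes tested. Adam10, a membrane protease that can release RANKL, differed by -0.18 without overlap (limma adjusted p = 0.281). Itgav, the integrin alpha V chain, differed by -0.35 with overlap (limma adjusted p = 0.376), by -0.20 without vehicle replicate 1, and by -0.060 on its other probe.

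Osteoclast and myeloid fusion genes, the classic programme downstream of RANK, gave 0 calls by limma among 19 tested of 21. At an unadjusted p under 0.05 there were 2, or 10.5%, against 15.2% of all genes tested. Their median difference was -0.13 and the groups did not overlap in 5.26% of cases, against 10.5% of all genes tested. Csf1, the macrophage growth factor that osteoclast precursors need together with RANKL, ranged from 0.22 to 0.47 in E7386 samples and from 0.69 to 1.07 in vehicle samples, a difference of -0.53 (limma adjusted p = 0.067). Its other 2 probes gave 0.031 and -0.021, so the probes of Csf1 disagree. Spi1, the myeloid transcription factor PU.1, differed by -0.50 with overlap and was detected on 1 of 4 E7386 arrays and on 4 of 4 vehicle arrays. Dcstamp, a membrane protein needed for osteoclast fusion, differed by -0.69 with overlap.

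**Figure D4:**
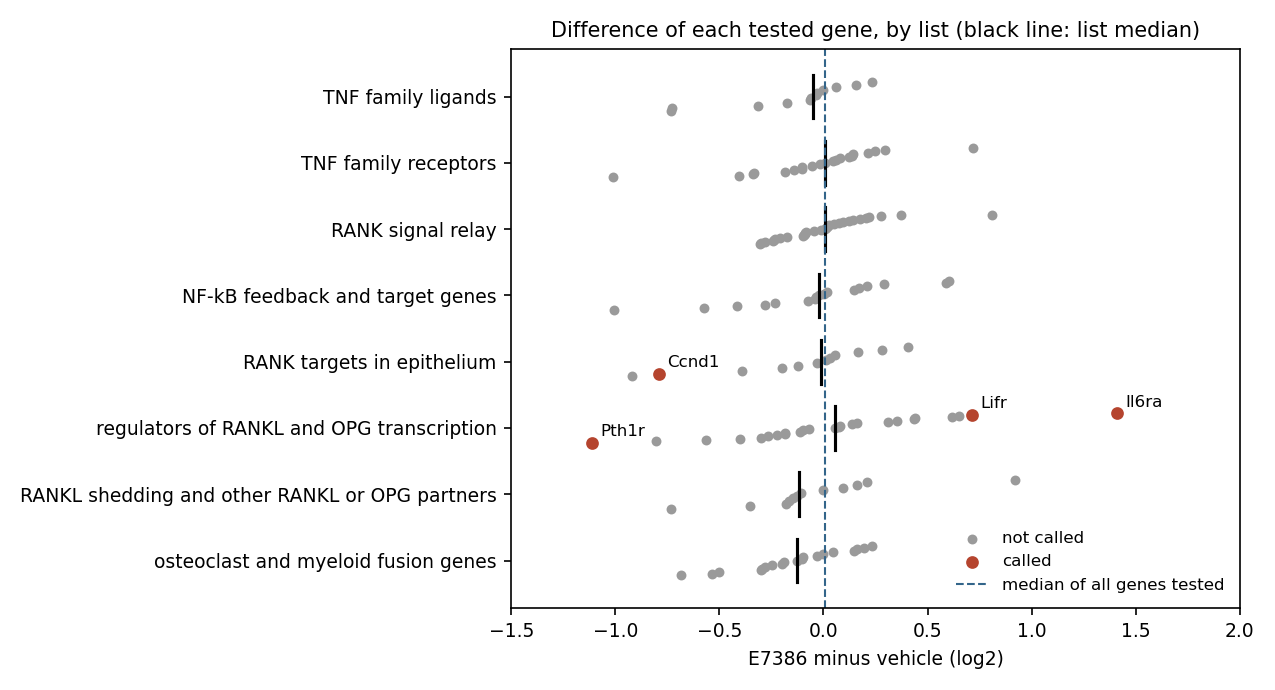
Difference of each tested gene, E7386 minus vehicle (x axis, log2), in the 8 lists around the axis (rows), with the list median (black line) and the median of all genes tested (dashed line, 0.0088). List medians lie between -0.13 and 0.054, and 4 genes passed the adjustment, Il6ra, Lifr, Pth1r and Ccnd1.

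Genes whose levels followed each member most closely over the 8 arrays were ranked by Pearson's r among 15408 genes with a symbol and complete values. The arrays share their slide and fall into both treatment groups, so for Tnfsf11 the likeness includes the difference between the groups. Nearest to Tnfsf11 were Doc2b, a calcium sensor of vesicle release (r = 0.977), Ramp2, a partner of the adrenomedullin receptor (r = 0.976), Lcn2, the siderophore-binding protein lipocalin 2 (r = 0.974), and Cep152, a protein of centriole duplication (r = 0.973). In all, 107 genes had an r over 0.9 with Tnfsf11. Doc2b was higher in E7386 samples by 1.15, Lcn2 by 1.52, Cep152 by 0.59 and Ramp2 by 0.33 on the log2 scale.

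The nearest patterns to the other members did not separate the groups. For Tnfrsf11a they were Gramd4 (r = 0.998), Rcsd1 (r = 0.976), Fmr1nb (r = 0.952) and Unc13d (r = 0.951), with 41 genes over 0.9. Both Gramd4, at 1.22 ± 0.035 in E7386 samples and 1.27 ± 0.13 in vehicle samples (SD, n = 4 each), and Tnfrsf11a spread more widely over the vehicle samples. For Tnfrsf11b the nearest were Tiam2 (r = 0.949), Pof1b (r = 0.942), Dnm3 (r = 0.942) and Frmpd4 (r = 0.94), with 18 genes over 0.9. Closest to Traf6 were Layn (r = 0.961), Eif4e1b (r = 0.942), Ubl5 (r = 0.936) and Alyref (r = 0.935), with 31 genes over 0.9. With 8 arrays and this many genes searched, such values of r describe these arrays only.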

How the data were processed

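Total RNA of 8 whisker follicle samples, 4 given E7386 and 4 given vehicle, was converted from 50 ng to Cy3-labelled cRNA and read on 1-colour Agilent arrays, per the labels. The authors obtained the scanner intensities with Feature Extraction. Its version was 11.5.1.1 per the file headers, and the submitters' processing notes give version 11. The authors also deposited a table of log2 values, quantile normalised as its identical sorted columns show (median 5.31 each), which served as an alternative. The array was designed on mm9, so only RefSeq promoters of GRCm38.p6 are given coordinates.

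The value used was log2 of the processed signal, a background-corrected intensity per the file headers, minus its 75th percentile on each array over the 55681 probes for mouse transcripts. Spots marked as non-uniform were set to missing, and spots of a probe were averaged. Symbols of 27509 probes came from matching accessions to RefSeq, out of 29150 with a RefSeq accession. Each gene was represented by its probe with the highest mean over 8 arrays, kept where that probe was detected on 3 or more arrays of either group. The number of arrays limits the precision. Correlations within groups lay between 0.985 and 0.994.

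Groups were compared in R 4.3.3 with the moderated linear models of limma 3.58.1 (trend and robust off) and Benjamini-Hochberg adjustment at 0.05 over all 25353 genes. Differences are E7386 minus vehicle. The fit was tested on simulated data. The members and lists were chosen with earlier results of these data known. Named genes are the members, the called genes of each pathway list or otherwise its 3 with the smallest p, the 4 nearest patterns of each member, and the strongest marker. Other genes are marked in the text. Alternatives varied the background correction, scaling, filter, probe choice, variance model, array weights, threshold, replicate block and arrays used. The vehicle limit of Tnfsf11 uses the lowest processed signal of a spot well above background on each array.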

Additional observations from a re-analysis of the deposited data

Results flagged for a closer look

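In 4 of the 54 combinations of gene and group that were checked, 1 sample stood far from the other 3 of its group by Dixon's criterion, which chance meets in about 1 in 20 groups. Rspo1 was 2.94 in E7386 replicate 1, against 2.59 to 2.63 in the other E7386 samples. Spib was -4.53 in E7386 replicate 1, against -5.62 to -5.56 in the others of its group. Itgav was -0.53 in E7386 replicate 2, where the remaining E7386 samples lay between -0.83 and -0.79. Spi1 was -4.81 in E7386 replicate 2 and between -5.48 and -5.39 in the rest of the group. In all 4 cases the sample apart was the highest of its group and came from replicates 1 and 2, the E7386 samples of low muscle signal. The part of the muscle signal in these values was not tested. No member of the axis had such a sample.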

How the results depend on the processing

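The difference of Tnfsf11 kept its direction in the 19 alternatives that gave a value. It fell to 0.35 with normexp on the median signals at an offset of 50, which is added to every signal and compresses dim spots, and otherwise lay between 1.78 and 2.14. Requiring detection on all 8 arrays gave Tnfsf11 no value. Normexp on gMeanSignal was planned and not run, since the scanner files used hold no such column, so normexp on median signals was chosen after seeing the data, as was leaving out the 3 muscle-poor arrays. The other 3 members kept their sign in all 20 alternatives. Of 284 genes called, normexp gave 479, no detection filter 153, an adjusted p under 0.10 gave 689, the muscle-poor arrays left out gave 67, and leaving out 1 array gave 93 (without E7386 replicate 3) to 246. Scaling by array medians moved the median of all genes to -0.068 and the split to 135 higher and 123 lower, against 191 and 93. Of the 4 pathway genes called, normexp gave 8, no detection filter 2, eBayes with trend and robust 10, an adjusted p under 0.10 gave 11, and leaving out 1 array 1 to 5, with 1 without E7386 replicate 3 or without E7386 replicate 4. Among genes named from the lists, 412 of their values under an alternative stayed on the same side of the threshold, 28 lost the call and 12 gained it. Why the counts moved was not tested beyond the fewer arrays or other genes entering.

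With the replicate number as a replicate block, 59 genes and 1 pathway gene, Il6ra, were called, and the calls of Tnfsf11, Lifr (adjusted p = 0.0928), Pth1r (0.0897) and Ccnd1 (0.0593) were lost. Residuals of samples with the same number correlated at 0.49, -0.17, 0.29 and 0.18, so 3 of 4 pairs deviated together. The number also equals the column on the slide, while the labels tie it to no animal or batch. The summed muscle signal was 264.9 on E7386 replicate 2 and 682.9 on vehicle replicate 2, the pair with the negative value. It lay closer between the groups for replicates 1, 3 and 4, and its part in these correlations was not tested. Pairing was therefore not established, and the fit without the block was kept.

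Signal over background limits Tnfsf11, whose vehicle level is only bounded, and Spib, Spi1 and Gab2, each below detection on some arrays. All differences carry the row of the slide, which cannot be told apart from treatment.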

Other observations

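Markers of immune cells gave values not described above. Il7r, the interleukin 7 receptor of T cells and innate lymphoid cells, averaged -1.81 ± 0.33 in E7386 samples and -2.54 ± 0.22 in vehicle samples (SD, n = 4 each), without overlap (limma adjusted p = 0.111). Cd207, which encodes langerin of Langerhans cells, averaged -1.29 ± 0.25 in E7386 samples and -1.89 ± 0.13 in vehicle samples (SD, n = 4 each), also without overlap (limma adjusted p = 0.0849). Of the 72 marker genes tested, only these 2 had groups apart, or 2.78%, against 10.5% of all genes tested. Nothing is read from them about cell numbers. Ms4a1, the B cell surface protein CD20, was detected on 1 of 4 E7386 arrays and on 4 of 4 vehicle arrays, with a difference of -1.91 and overlap (limma adjusted p = 0.248). Cd3e, a chain of the T cell receptor complex, differed by 0.23 with overlap. Of the T cell markers 6 of 11 were higher and 5 lower in E7386 samples, with a median difference of 0.12. Of the macrophage and dendritic markers 7 of 11 were higher and 4 lower, with a median of 0.073, and of 4 B cell markers tested 1 was higher. Il7r, Cd207, Ms4a1 and Cd3e were named after their values were seen.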
